A study of Homo sapiens with 12 samples.

Results

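The aldo-keto reductases of family 1 were followed through the knockdown of 3 genes of citrate handling in MiaPaCa-2 cells, a long-established line from a human pancreatic cancer. The members are AKR1A1, AKR1B1, AKR1B10, AKR1C1, AKR1C2 and AKR1C3, taken as the rows of the deposited count table whose Ensembl gene carries the symbol, 6 of 70116 genes. The 12 polyA RNA libraries form 4 groups of 3, all from the same line. Cells received either siControl, a control small interfering RNA (siRNA), or the siRNA named siSLC25A1, siACLY or siACO1. SLC25A1 carries citrate out of mitochondria, ACLY cleaves citrate in the cytosol to give acetyl-CoA, and ACO1 is the aconitase of the cytosol. The title of the study places it in ferroptosis, a death by iron-dependent lipid peroxidation, under nutrient stress. How many siRNAs were used for each target, their sequences, the medium at harvest and the time of harvest are not given in the sources used here. Nothing in the labels says that replicates came from separate cultures, so p-values measure the spread between these libraries, which may be technical.

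Family 1 enzymes use NADPH to turn aldehydes and ketones into alcohols. AKR1A1, aldehyde reductase, takes small aldehydes and glucuronate, and AKR1B1, aldose reductase, turns glucose into sorbitol in the first step of the polyol pathway; both also reduce reactive aldehydes. AKR1B10 is a close relative of AKR1B1 that is best known for reducing retinal. The AKR1C enzymes are hydroxysteroid dehydrogenases that also take lipid aldehydes: AKR1C1 inactivates progesterone, AKR1C2 inactivates dihydrotestosterone, and AKR1C3 forms testosterone and prostaglandin F. AKR1B10 and the AKR1C genes are textbook targets of NRF2, the transcription factor of the antioxidant response.

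The members differ in how well a read can be assigned to them, so their sequences are given first. AKR1C1 and AKR1C2 are identical at 98.0% of 969 coding bases (950 bases), with a longest identical run of 186 bases. AKR1C1 matches AKR1C3 at 91.8% and AKR1C2 matches AKR1C3 at 91.2%, whereas AKR1B1 and AKR1B10 match at 76.1%. The stretch of 60 coding bases from base 103 to base 162 holds 10 of the 19 differences between AKR1C1 and AKR1C2, and is shown because, within coding sequence, reads tell the 2 genes apart only where they cross such bases. Capitals mark the differing bases (GENCODE transcript sequences, each in the direction of its own transcript).
AKR1C1: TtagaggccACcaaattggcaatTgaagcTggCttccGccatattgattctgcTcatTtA
AKR1C2: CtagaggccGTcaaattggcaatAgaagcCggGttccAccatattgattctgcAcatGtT
Over whole transcripts, 35.7% of the 31-base stretches of AKR1C1 and 48.2% of those of AKR1C2 also occur in transcripts of other genes. Of the AKR1C1 stretches 35.1% occur in AKR1C2. The share was 30.7% for AKR1B10, 13.9% for AKR1B1, 7.17% for AKR1C3 and 5.53% for AKR1A1. A gene was treated as uncertain at 20% or more, so AKR1C1, AKR1C2 and AKR1B10 are uncertain here. How shared reads were counted is not given in the sources used here. The limit takes no account of abundance. In AKR1C1, 2.57% of stretches occur in AKR1C3, a far scarcer gene whose counts may also depend on shared reads.

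The start regions follow, from 250 bases before to 50 bases after each RefSeq start site (GRCh38.p14); 5 of the 6 members matched an entry, all but AKR1B10. The regions of AKR1A1 and AKR1B1 are shown because these 2 genes moved together in the data. Capitals mark matches, on either strand, to the E-box CACGTG or the GC box GGGCGG, which overlap by 1 base in AKR1A1.
AKR1A1 (chr1:45550576-45550875, plus strand): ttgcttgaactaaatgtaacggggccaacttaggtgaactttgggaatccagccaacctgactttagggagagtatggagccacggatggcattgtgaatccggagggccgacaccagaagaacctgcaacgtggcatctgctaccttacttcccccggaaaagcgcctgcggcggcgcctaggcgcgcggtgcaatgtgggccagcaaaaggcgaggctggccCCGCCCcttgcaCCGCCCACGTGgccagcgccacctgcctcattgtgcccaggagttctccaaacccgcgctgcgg
AKR1B1 (chr7:134459051-134459350, minus strand): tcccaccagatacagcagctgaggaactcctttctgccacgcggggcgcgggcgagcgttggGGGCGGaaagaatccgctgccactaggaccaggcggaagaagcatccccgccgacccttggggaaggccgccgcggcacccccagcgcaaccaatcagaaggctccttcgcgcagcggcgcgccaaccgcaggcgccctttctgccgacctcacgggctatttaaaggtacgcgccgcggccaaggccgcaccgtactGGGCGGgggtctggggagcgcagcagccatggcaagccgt
AKR1A1 held 1 E-box, with its first base at -9, and 2 GC boxes, at -26 and -14, with the base after the 250 upstream bases counted as 0. AKR1B1 held 2 GC boxes, at -188 and 10, and no E-box. A second RefSeq start region of AKR1B1 (chr7:134459190-134459489), not shown, held 1 GC box, at -49, and no E-box. Of 35116 RefSeq start regions of the same length, 7.26% held the E-box and 45.0% the GC box. No member region held the antioxidant response core TGACNNNGC (13.3% of all regions), the AP-1 motif TGANTCA (7.71%), the FOXO motif GTAAACA (3.42%) or TGATGNAA of C/EBP-ATF factors (3.62%). A match describes letters only, and a missing match concerns this window only.

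The start regions of AKR1C1 and AKR1C2 are shown because they are near copies, identical at 97.3% of 296 aligned positions, while the levels of the 2 genes per kilobase lie far apart. Capitals mark the bases that differ, including a run present in AKR1C1 only.
AKR1C1 (chr10:4963169-4963464, plus strand): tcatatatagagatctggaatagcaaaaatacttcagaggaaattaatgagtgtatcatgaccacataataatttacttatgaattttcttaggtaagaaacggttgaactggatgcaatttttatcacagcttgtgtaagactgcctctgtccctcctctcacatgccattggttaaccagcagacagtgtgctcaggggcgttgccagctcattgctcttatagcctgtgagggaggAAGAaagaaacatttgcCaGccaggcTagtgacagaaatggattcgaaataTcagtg
AKR1C2 (chr10:5003816-5004107, minus strand): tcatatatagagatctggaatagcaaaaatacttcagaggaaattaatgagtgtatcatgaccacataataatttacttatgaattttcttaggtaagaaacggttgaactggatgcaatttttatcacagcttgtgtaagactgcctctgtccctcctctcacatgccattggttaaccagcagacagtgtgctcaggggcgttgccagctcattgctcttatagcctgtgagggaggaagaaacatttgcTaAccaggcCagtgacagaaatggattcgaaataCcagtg
Against these, the start region of AKR1C3 entered first in the table was identical to that of AKR1C1 at 75.7% of aligned positions. None of the AKR1C regions held any of the 6 motifs. The GENCODE span of AKR1C2 reaches to 5018031 and that of AKR1C3 begins at 5035354, each upstream of the RefSeq regions used. These genes therefore have other annotated starts, and which start the cells use was not tested.

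In the genome (GENCODE release 29 on GRCh38) the AKR1C genes sit side by side on chromosome 10. AKR1C1 spans 4963253 to 4983283 on the plus strand, AKR1C2 spans 4987400 to 5018031 on the minus strand and AKR1C3 spans 5035354 to 5107686 on the plus strand. Gaps of 4116 bases (AKR1C1 to AKR1C2) and 17322 bases (AKR1C2 to AKR1C3) separate them. AKR1B1 (chromosome 7, 134442350 to 134459284, minus strand) and AKR1B10 (134527592 to 134541408, plus strand) lie 68307 bases apart, and AKR1A1 is on chromosome 1 (45550543 to 45570049, plus strand). All 6 are protein-coding, and no exon base of theirs overlaps an exon of another gene.

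The libraries held 24159424 to 43792811 counts, and 16197 genes were tested after a filter on low counts. Replicates correlated at 0.991 to 0.994 across genes (log2 scale), and the chi-square between replicates was 2.27 to 12.1 per degree of freedom, above sampling noise. That spread cannot tell separate cultures from separate libraries of 1 culture. Each library was treated as a replicate. The library siACO1 replicate 3 stood apart from its replicates: chi-square 11.3 and 12.1 against 2.27 between the other 2. The siACO1 results of the members are therefore also given without it. Each target fell in its own group: SLC25A1 to 8.75% of control, ACLY to 7.24% and ACO1 to 3.72%. Against siControl the targets were not called in the other groups, except ACO1 in siACLY. ACO1 was at 112% of control there (log2 fold change 0.17, edgeR quasi-likelihood test, adjusted p 0.0239). The part of this rise in the results was not tested. Of the epithelial markers KRT8, KRT18 and KRT19 were present and EPCAM and CDH1 were at 0.0776 CPM (CPM, counts scaled to a common library total) or less. The mesenchymal markers VIM and ZEB1 were present, and CDH2 was at 0.0715 CPM or less. Of the 4 immune markers PTPRC and CD3E were at 0 in every library, CD68 reached at most 0.201 CPM and LYZ was at 0.642 to 2.24 CPM. The acinar markers PRSS1, CPA1 and CELA3A were at 0 in every library, and fibroblast, endothelial and hepatocyte markers stayed under 1 CPM. In bulk RNA, fewer cells that express a gene and less RNA per cell cannot be told apart.

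AKR1A1 and AKR1C1 were the abundant members, and AKR1B10 had no count in any library. Their order depends on the length used. Per kilobase of all annotated exon sequence, AKR1A1 in siControl had 17.1 ± 0.675 CPM (SD, n = 3) and AKR1C1 had 11.3 ± 0.595 CPM. Per kilobase of coding sequence AKR1C1 came first, at 102 ± 5.38 CPM against 54.9 ± 2.16 CPM. Below them on both scales came AKR1B1 (2.30 CPM per kilobase of exon), AKR1C2 (0.351 ± 0.0356 CPM) and AKR1C3 (0.199 ± 0.0628 CPM). In each order neighbouring members stood further apart than their SDs. AKR1B10 was at 0 in all 12 libraries, which allows up to 0.0685 to 0.124 CPM per library (3 counts), and 0.00832 CPM over all of them. Floors and intervals on counts cover counting error only.

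**Figure D1:**
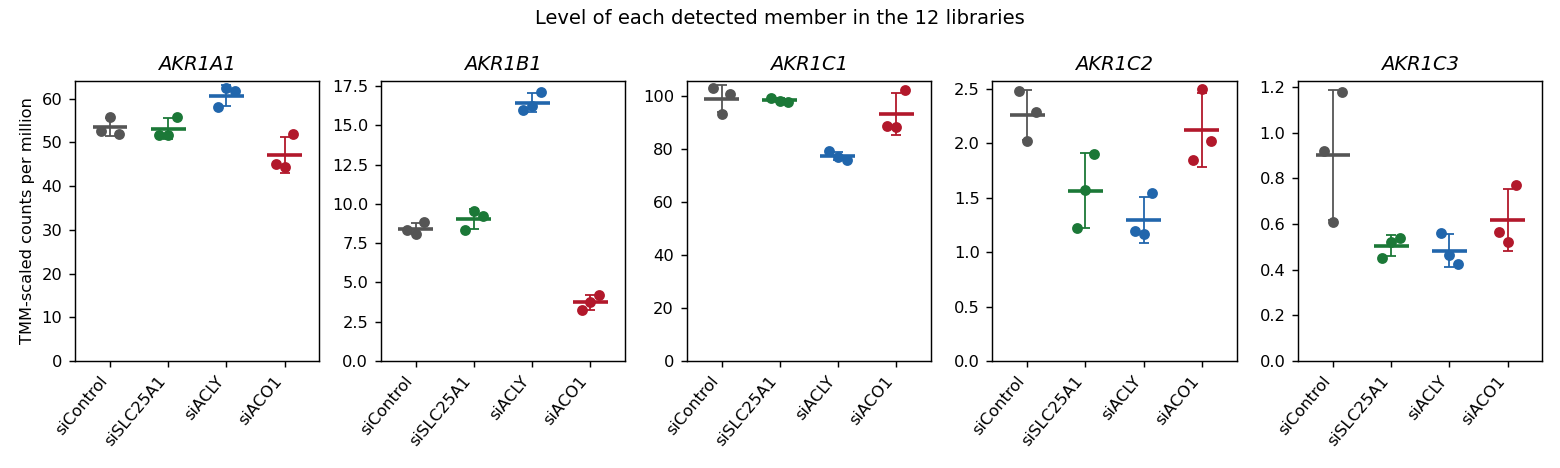
TMM-scaled CPM of the 5 detected members (y axis from 0, a separate scale for each gene) in the 4 groups (x axis); points are libraries, horizontal bars are means and error bars are SD over 3 libraries. AKR1B1 sits between 16.0 and 17.1 in siACLY and between 3.26 and 4.17 in siACO1, clear of siControl on both sides, and AKR1C1 is lowest in siACLY.

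AKR1B1, aldose reductase, moved most clearly: it rose when ACLY was knocked down and fell when ACO1 was. Its TMM-scaled level (counts scaled by the trimmed mean of M values) was 8.35, 8.10 and 8.83 CPM in siControl and 8.34, 9.54 and 9.24 CPM in siSLC25A1. It was 16.0, 16.2 and 17.1 CPM in siACLY, and 3.26, 3.74 and 4.17 CPM in siACO1. The siACLY libraries all lay above and the siACO1 libraries all below every control, while siSLC25A1 overlapped the controls. These levels rest on 247 to 299 counts per library in siControl, 418 to 710 in siACLY and 81 to 130 in siACO1. In siACLY AKR1B1 was 1.95-fold higher than in siControl (95% interval 1.71 to 2.22; log2 fold change 0.96, SE 0.09; edgeR quasi-likelihood test, adjusted p 1.85e-09). In siACO1 it was 2.24-fold lower (log2 fold change -1.17, SE 0.11, edgeR adjusted p 1.41e-09), and -1.26 without siACO1 replicate 3. In siSLC25A1 the log2 fold change was 0.10 (95% interval -0.10 to 0.30, edgeR adjusted p 0.535). Set directly against each other, siACLY was 4.37-fold above siACO1 (95% interval 3.77 to 5.08, edgeR adjusted p 9.02e-16), rank 82 of 16197 tested genes by size of change; the log2 fold change was 2.13, and 2.22 without siACO1 replicate 3. siSLC25A1 lay between the other 2 knockdowns, below siACLY by a log2 fold change of -0.86 and above siACO1 by 1.27, each past the threshold (edgeR adjusted p 2.75e-08 and 2.3e-10); the latter was 1.36 without siACO1 replicate 3.

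AKR1A1, aldehyde reductase, moved in the same directions as AKR1B1 by a far smaller amount. It was at 52.7, 55.9 and 51.9 CPM in siControl and at 51.7, 51.7 and 55.9 CPM in siSLC25A1. It was at 58.1, 62.4 and 61.7 CPM in siACLY and at 45.0, 44.4 and 51.9 CPM in siACO1. The siACLY libraries were all above the controls; in siACO1 replicates 1 and 2 were well below them, and replicate 3 lay just under the lowest control. The log2 fold change was 0.18 in siACLY (SE 0.06, edgeR adjusted p 0.0137) and -0.18 in siACO1 (SE 0.06, edgeR adjusted p 0.013). Both calls were lost when some libraries were left out. In siACLY the change was 0.15 to 0.17 and missed the threshold without siControl replicate 1 or 3 or siACLY replicate 2 or 3 (edgeR adjusted p 0.0565 to 0.0785). In siACO1 it was -0.14 to -0.16 and missed it without siControl replicate 2 or siACO1 replicate 1 or 2 (edgeR adjusted p 0.0686 to 0.0869), and -0.26 without siACO1 replicate 3. With libraries scaled by their totals alone the siACO1 value was -0.14 (edgeR adjusted p 0.0582). In siSLC25A1 the log2 fold change was -0.01 (95% interval -0.13 to 0.11). The siACLY and siACO1 libraries differed from each other by 0.36 (SE 0.06, edgeR adjusted p 7.3e-06; 0.44 without siACO1 replicate 3), without overlap. In AKR1A1 siSLC25A1 was below siACLY by -0.19 (edgeR adjusted p 0.0108) and above siACO1 by 0.17 (edgeR adjusted p 0.0193; 0.25 without siACO1 replicate 3), the latter with overlapping libraries. The first call was lost without siSLC25A1 replicate 1 or 2 or siACLY replicate 2, and the second without siSLC25A1 replicate 3 or siACO1 replicate 1 or 2.

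Over the 12 libraries the log2 levels of AKR1A1 and AKR1B1 had a Pearson r of 0.905, given as a description, since the libraries share groups and scaling. The r of AKR1B1 with AKR1C1 was -0.49 and with AKR1C2 -0.62. The ratio of AKR1A1 to AKR1B1 counts, which needs no scaling between libraries, was 5.88 to 6.90 in siControl and 5.42 to 6.21 in siSLC25A1. It was 3.61 to 3.85 in siACLY and 11.9 to 13.8 in siACO1, so within a library the 2 genes changed unequally.

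AKR1C1, which inactivates progesterone, fell in siACLY. Its level was 103, 93.1 and 101 CPM in siControl and 99.3, 98.2 and 97.8 CPM in siSLC25A1. It was 79.1, 77.1 and 75.9 CPM in siACLY and 88.7, 88.2 and 102 CPM in siACO1. All siACLY libraries lay below every library of the other groups, and siACO1 overlapped the controls through replicate 3. In siACLY the log2 fold change was -0.35 (SE 0.05, edgeR adjusted p 2.92e-06), a level 1.28-fold lower. In siSLC25A1 it was -0.01 (95% interval -0.11 to 0.10, edgeR adjusted p 0.945). In siACO1 it was -0.09 (SE 0.05, edgeR adjusted p 0.189), and 1 library decided that value: without siACO1 replicate 3 it was -0.16 and past the threshold (edgeR adjusted p 0.00313). siACLY was also below siSLC25A1 and siACO1 in AKR1C1: siSLC25A1 exceeded siACLY by 0.35 (edgeR adjusted p 5.41e-06), and siACLY differed from siACO1 by -0.27 (edgeR adjusted p 0.000119; -0.19 without siACO1 replicate 3). siSLC25A1 differed from siACO1 by 0.08 (edgeR adjusted p 0.221), and without siACO1 replicate 3 by 0.16, past the threshold (edgeR adjusted p 0.00444).

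AKR1C2, which inactivates dihydrotestosterone, was scarce and fell in siACLY. It was at 2.48, 2.03 and 2.29 CPM in siControl, at 1.22, 1.57 and 1.91 CPM in siSLC25A1, at 1.19, 1.16 and 1.54 CPM in siACLY and at 1.85, 2.50 and 2.02 CPM in siACO1. The libraries of siACLY and of siSLC25A1 all lay below the lowest control, and those of siACO1 overlapped the controls. In siACLY the log2 fold change was -0.81 (SE 0.21, edgeR adjusted p 0.00324). In siSLC25A1 it was -0.54 (SE 0.21) and did not pass (edgeR adjusted p 0.0735), though it did without siSLC25A1 replicate 3 (-0.71, edgeR adjusted p 0.0452), the only 1 of 19 alternatives that called it; without siSLC25A1 replicate 1 it was -0.38 (edgeR adjusted p 0.296). In siACO1 it was -0.08 (95% interval -0.50 to 0.33), and -0.05 without siACO1 replicate 3. The siACLY level was below that of siACO1 by -0.73 (edgeR adjusted p 0.00765). It was -0.77 without siACO1 replicate 3, and -0.59 without siACO1 replicate 2, where the call was lost (edgeR adjusted p 0.0571). siSLC25A1 differed from siACO1 in AKR1C2 by -0.46 and did not pass (edgeR adjusted p 0.0927). That difference was -0.30 without siSLC25A1 replicate 1 (edgeR adjusted p 0.35), -0.50 without siACO1 replicate 3 (edgeR adjusted p 0.103) and -0.62 without siSLC25A1 replicate 3, the only 1 of 19 alternatives that called it (edgeR adjusted p 0.0478). siSLC25A1 and siACLY differed by 0.27 (95% interval -0.20 to 0.74), a difference that did not pass.

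AKR1C3, which forms testosterone and prostaglandin F, was the scarcest detected member, with 11 to 33 counts per library. It was at 0.921, 0.610 and 1.18 CPM in siControl, at 0.453, 0.523 and 0.539 CPM in siSLC25A1, at 0.562, 0.465 and 0.424 CPM in siACLY and at 0.563, 0.520 and 0.770 CPM in siACO1. The siSLC25A1 and siACLY libraries lay below the lowest control, itself close to them, and siACO1 overlapped the controls. The log2 fold change was -0.85 in siACLY (SE 0.34, edgeR adjusted p 0.0483), a call that held in 5 of 19 alternatives, whose edgeR or DESeq2 adjusted p ran from 0.0217 to 0.213. Without siControl replicate 3 it was -0.64 and without siACLY replicate 1 it was -1.01, neither past the threshold. Leaving out any 1 library other than siControl replicate 2 or siACO1 replicate 3 ended the call. It was -0.82 in siSLC25A1 (SE 0.35, edgeR adjusted p 0.10) and -0.52 in siACO1 (SE 0.33, edgeR adjusted p 0.231; -0.72 without siACO1 replicate 3). Between knockdowns AKR1C3 differed by -0.33 to 0.03, none past the threshold (edgeR adjusted p 0.492 to 0.963). Without siACO1 replicate 3 its differences from siACO1 were -0.10 in siSLC25A1 and -0.14 in siACLY.

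**Figure D2:**
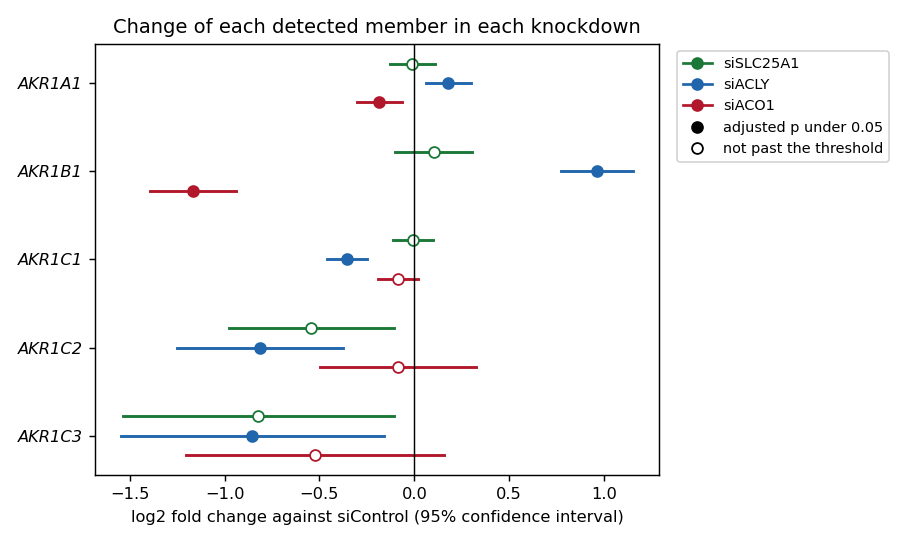
Log2 fold change of each detected member against siControl (x axis, 0 is no change) with its 95% confidence interval (lines); filled points have an adjusted p under 0.05 in the edgeR fit of 12 libraries. The AKR1B1 intervals of siACLY (0.78 to 1.15) and siACO1 (-1.39 to -0.94) lie on opposite sides of 0, and the 3 AKR1C genes are filled in siACLY only, which is a statement on the threshold and not on a difference between knockdowns.

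Counted together, all 5 tested members were called in siACLY, 2 higher and 3 lower, where 36.7% of all tested genes were called (18.4% higher, 18.3% lower). In siACO1 2 of 5 were called, both lower, against 37.1% of all genes (17.8% higher, 19.3% lower). In siSLC25A1 none of the 5 was called, by edgeR or by DESeq2, against 19.6% of all genes (10.3% higher, 9.27% lower); 2 members, AKR1C2 and AKR1C3, had an unadjusted p under 0.05 (edgeR, 0.0166 and 0.0256). Between knockdowns 3 of 5 were called for siSLC25A1 against siACLY (33.8% of all genes), 2 of 5 for siSLC25A1 against siACO1 (42.1%) and 4 of 5 for siACLY against siACO1 (42.1%). With shares this high a call by itself is common. With libraries scaled by their totals alone, 61.0% rather than 50.1% of all calls in siACLY were rises, and 59.5% rather than 47.9% in siACO1, with no member changing direction. The comparisons with siControl share their controls. In siACO1, where AKR1A1 and AKR1B1 fell, the summed level of the 5 epithelial markers was also lower, 2066 to 2181 CPM against 3607 to 3744 CPM in siControl. The epithelial sum, mostly KRT8 and KRT18, was also below the controls in siSLC25A1 (3125 to 3453 CPM), where neither gene was called. It was above them in siACLY (3824 to 3922 CPM). Its part in the result was not tested. In siACLY the summed level of the 3 mesenchymal markers, mostly VIM, was 4372 to 4909 CPM against 3568 to 3716 CPM in siControl. The mesenchymal sum was also above the controls in siSLC25A1 (3918 to 3989 CPM) and overlapped them in siACO1 (3535 to 3900 CPM). That of the 4 immune markers, nearly all LYZ, was 0.698 to 1.22 CPM in siControl and higher in every knockdown library, at 1.65 to 2.27 CPM. The part of these markers in the results was not tested.

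Because AKR1C1 and AKR1C2 share so much sequence, their counts were also pooled. AKR1C2 made up 2.13% to 2.35% of the counts of both genes in siControl and 1.94% to 2.76% in siACO1. It made up 1.21% to 1.91% in siSLC25A1 and 1.48% to 1.99% in siACLY. The 3 shares of siSLC25A1 and of siACLY lay below every control, and the exact (Clopper-Pearson) 95% binomial intervals of single libraries mostly overlapped those of the controls. The exception was siSLC25A1 replicate 1: its interval of 0.848% to 1.69% lay below those of siControl replicate 1 (1.89% to 2.89%) and 3 (1.72% to 2.83%) and touched only that of replicate 2 (1.67% to 2.67%). With AKR1C1, AKR1C2 and AKR1C3 summed into 1 row, the log2 fold change was -0.37 in siACLY (edgeR adjusted p 1.54e-06), -0.02 in siSLC25A1 (edgeR adjusted p 0.81) and -0.09 in siACO1 (edgeR adjusted p 0.168). The summed row mostly follows AKR1C1. The part of shared reads in the values of each gene was not tested.

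**Figure D3:**
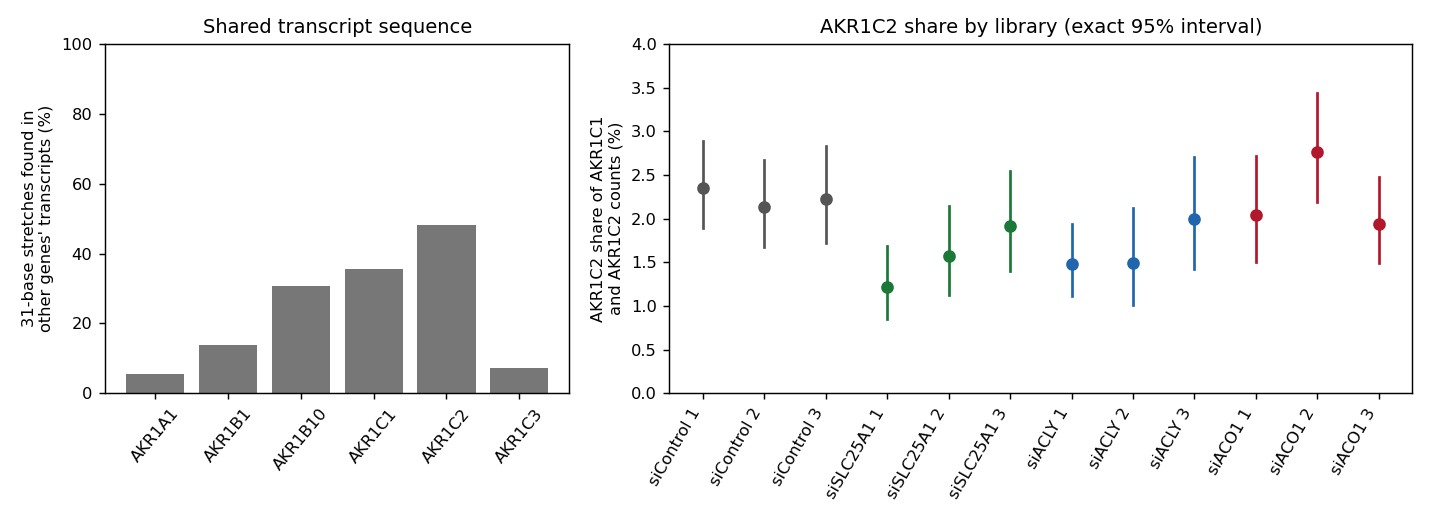
Left, the share of the 31-base stretches of each member's transcripts that also occur in transcripts of other genes (y axis, percent). Right, AKR1C2 counts as a percentage of AKR1C1 and AKR1C2 counts in each library, with exact 95% binomial intervals; all libraries lie between 1.21% and 2.76%, and those of siSLC25A1 and siACLY are below the controls.

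Of the other members of the superfamily, 6 of 11 listed genes passed the filter. AKR1E2, another family 1 reductase on chromosome 10, rose in siSLC25A1 (log2 fold change 0.48, SE 0.10, edgeR adjusted p 0.000519) from 9.49, 9.57 and 10.0 CPM in siControl to 11.5, 15.5 and 13.6 CPM. It also rose in siACLY (0.39, edgeR adjusted p 0.00185), where AKR1C1 and AKR1C2 fell. AKR7A2, which reduces succinic semialdehyde, rose slightly in siACLY (0.19, edgeR adjusted p 0.00316) and siACO1 (0.18, edgeR adjusted p 0.00462; 0.14 without siACO1 replicate 3). In siSLC25A1 AKR7A2 was at 62.5 to 67.6 CPM, below every control (70.7 to 73.8 CPM), and its log2 fold change of -0.14 just missed the threshold (edgeR adjusted p 0.0505). KCNAB2, a potassium channel beta subunit with an aldo-keto reductase fold, rose by 1.50 in siACO1 (SE 0.07, edgeR adjusted p 1.51e-15), from 12.7 to 35.7 CPM, and by 0.71 in siACLY (edgeR adjusted p 1.61e-08); the siACO1 value was 1.53 without siACO1 replicate 3. KCNAB3, its paralogue, rose in siACO1 (0.84, edgeR adjusted p 4.2e-05; 0.79 without siACO1 replicate 3); its values of -0.19 in siACLY and 0.22 in siSLC25A1 did not pass. AKR7A3 and AKR7L, both uncertain by shared sequence and under 1 CPM on average in every group, passed in no comparison with siControl in the fit of 12 libraries. Without siACLY replicate 3, AKR7L passed as a fall in siACLY (-1.81, edgeR adjusted p 0.0154). It had 3 to 14 counts per siACLY library. In sum 1 of 6 rose in siSLC25A1, 3 of 6 in siACLY and 3 of 6 in siACO1, and none fell, where 10.3%, 18.4% and 17.8% of all tested genes rose. The siSLC25A1 count became 2, with AKR7A2 as a fall, without siACO1 replicate 2 or 3 (edgeR adjusted p 0.0488 and 0.018), with at least 10 counts asked of every library (edgeR adjusted p 0.042) and with only the compared groups fitted (edgeR adjusted p 0.0206).

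The other 5 lists of genes around the members were fixed with earlier results of these data known, so they describe the surroundings and support nothing. Their counts stand beside 19.6%, 36.7% and 37.1% of all tested genes called in siSLC25A1, siACLY and siACO1. Without siACO1 replicate 3 each list's siACO1 count stayed within 1.5 times, and its median moved by less than 0.1. Of 32 tested genes of the NRF2 list, 5 rose and 12 fell in siSLC25A1, 7 rose and 11 fell in siACLY, and 2 rose and 18 fell in siACO1. The median log2 fold changes were -0.09, -0.09 and -0.28, and those of all genes lay within 0.01 of 0. HMOX1, which breaks down heme, rose by 1.49 in siACLY (SE 0.07) and by 0.62 in siSLC25A1. TXNRD1, thioredoxin reductase, rose by 0.46 in siSLC25A1, while MAFK, a partner of NRF2 on DNA, fell by 0.67 in siACLY. In siACO1 the exporter ABCC2 fell by 0.73 and the growth inhibitor OSGIN1 fell by 0.69. TXNRD1 and HMOX1 also fell there, by 0.55 and 0.37 (edgeR adjusted p 2.19e-12 and 0.000624). AKR1C1 and AKR1C2 fell in siACLY, where HMOX1 rose but more genes of the list fell (11) than rose (7). More also fell than rose in siSLC25A1 and siACO1, where neither AKR1C1 nor AKR1C2 was called in the fit of 12 libraries. The part of NRF2 in the levels of the AKR1C genes was not tested.

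Among 25 other enzymes of carbonyls and aldehydes, 4 rose and 5 fell in siSLC25A1, 6 rose and 5 fell in siACLY, and 4 rose and 11 fell in siACO1 (medians 0.06, 0.05 and -0.18). ALDH1L2, a mitochondrial folate dehydrogenase, was higher in siACLY by 0.86 and lower in siACO1, where it fell by 0.99, the same directions as AKR1B1. ALDH1A3, which makes retinoic acid, rose by 0.43 in siSLC25A1 and fell by 0.97 in siACO1; 28.6% of its exon bases overlap another gene, so it is uncertain. ALDH3A2, fatty aldehyde dehydrogenase, fell by 0.34 in siACLY and by 0.56 in siACO1. DCXR, xylulose reductase, fell by 0.30 in siSLC25A1. The count in siSLC25A1 dropped from 9 to 5 without siControl replicate 1 and to 4 without siControl replicate 3.

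The 15 tested genes of the polyol, glucuronate and fructose list, which also holds sugar kinases and osmolyte carriers, were divided. In siSLC25A1 2 rose and 3 fell, in siACLY 5 rose and 1 fell, and in siACO1 4 rose and 4 fell (medians -0.09, 0.04 and 0.03). ALDOC, an aldolase, rose by 1.47 in siACLY and by 0.76 in siACO1. SLC6A6, the taurine carrier, was higher in siACLY by 0.28 and fell by 0.54 in siACO1. HK2, a hexokinase, rose by 0.45 in siSLC25A1 and fell by 0.58 in siACO1, and SLC5A3, the myo-inositol carrier, fell by 0.46 in siSLC25A1.

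Only 6 of 17 listed prostaglandin genes were tested. None rose and 2 fell in siSLC25A1, 2 rose and 2 fell in siACLY, and 1 rose and 2 fell in siACO1 (medians -0.08, -0.06 and -0.22). PTGES, prostaglandin E synthase, fell by 0.81 in siSLC25A1 and rose by 0.45 in siACLY and 1.37 in siACO1. PTGES2 fell by 0.17 in siSLC25A1 and by 0.35 in siACO1. PTGES3 fell by 0.20 in siACLY, and PTGFRN, a partner of the prostaglandin F receptor, fell by 0.81 in siACO1. The count in siACLY was 2 rather than 4 without siControl replicate 1 or 3 or siACLY replicate 2.

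Of 20 tested steroid and retinoid genes, 1 rose and 3 fell in siSLC25A1, 4 rose and 2 fell in siACLY, and 4 rose and 5 fell in siACO1 (medians -0.06, 0.03 and -0.07). The shares called, 20%, 30% and 45%, were near or below those of all genes in siSLC25A1 and siACLY and somewhat above in siACO1. RDH10, which oxidises retinol, fell by 1.00 in siSLC25A1, by 0.64 in siACLY and by 0.36 in siACO1. SRD5A3, a polyprenol reductase, fell by 0.58 and TSPO, a mitochondrial cholesterol-binding protein, fell by 0.41 in siACO1. HSD17B7, of cholesterol synthesis, rose by 0.27 in siSLC25A1. HSD3B7, of bile acid synthesis, fell by 0.51 in siACLY and rose by 0.22 in siACO1, a call lost without siACO1 replicate 3. HSD17B7 is uncertain from shared sequence (22.5%) and HSD3B7 from exon overlap (64.6%). The count in siSLC25A1 was 2 rather than 4 without siControl replicate 1 or 2 or any 1 siSLC25A1 library. In siACO1 it was 4 rather than 9 without siACO1 replicate 2, and 5 with DESeq2. Without siACO1 replicate 3, 2 rose and 6 fell there.

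**Figure D4:**
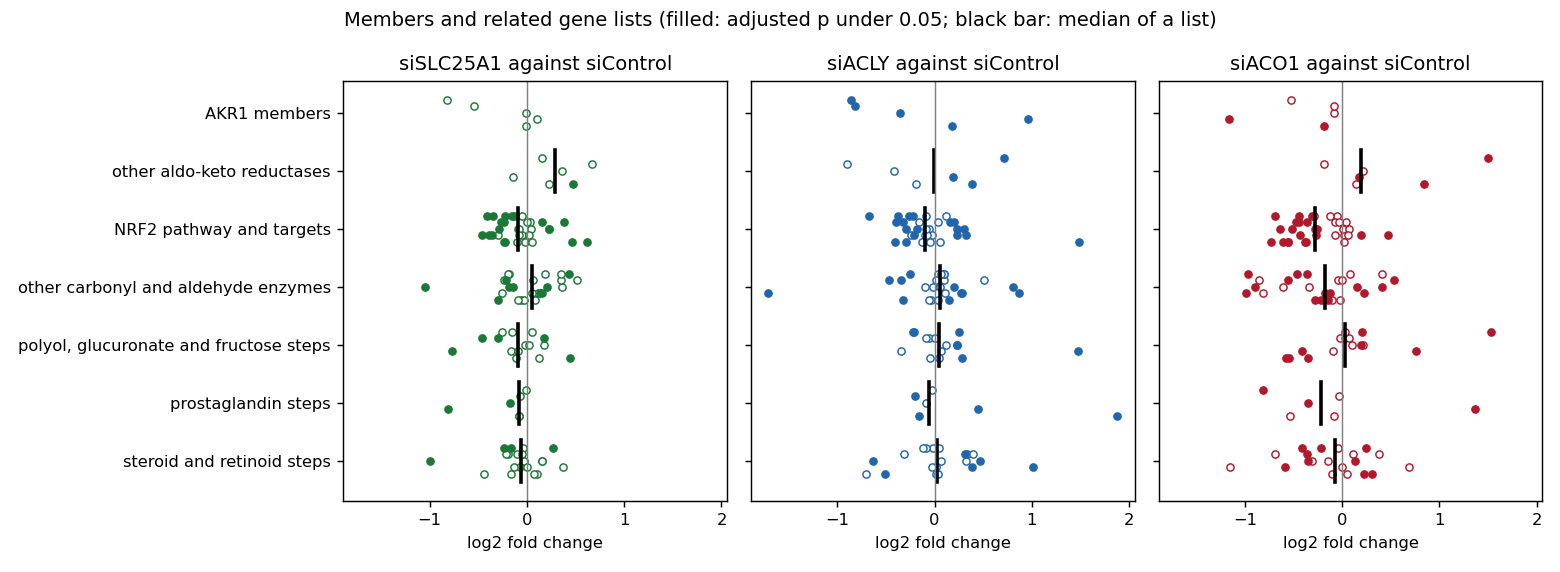
Log2 fold change against siControl (x axis) of every tested gene of the members and of 6 related lists (rows), one panel for each knockdown; filled points have an adjusted p under 0.05, and black bars are medians of a list. The NRF2 list has most filled points below 0 in siACO1 (18 of 20), and AKR1B1 is the outermost member on the right in siACLY and on the left in siACO1.

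The genes whose levels followed each member most closely over the 12 libraries were found by Pearson's r of log2 CPM among 9757 genes averaging 5 CPM or more, as a description of shared differences between groups. AKR1B1 was most like BNIP3L, a mitophagy receptor (r 0.990), and GCC1, a golgin (r 0.987). BNIP3L was at 121.5 CPM in siControl, 128 in siSLC25A1, 162 in siACLY and 88.1 in siACO1, and GCC1 at 53.5, 54.9, 68.4 and 41.4 CPM. Both keep the order of AKR1B1 over a smaller range. A gene that followed AKR1A1 closely was APEX2, a DNA repair nuclease (r 0.957). Its range was narrow, at 47.1, 47.2, 49.9 and 45.1 CPM in siControl, siSLC25A1, siACLY and siACO1. APEX2 passed the threshold in no comparison with siControl (edgeR adjusted p 0.972, 0.201 and 0.361 in siSLC25A1, siACLY and siACO1). AKR1C1 was most like SRM, spermidine synthase (r 0.976; 308, 309, 244 and 281 CPM in siControl, siSLC25A1, siACLY and siACO1), and PAXX, of DNA end joining (r 0.971). For AKR1C2 the genes were ZFTRAF1 (r 0.921) and PLA2G12A (r 0.901), the latter uncertain from shared sequence, and for AKR1C3 they were TSEN54, of the tRNA splicing endonuclease (r 0.893), and TPRN (r 0.878).

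**Figure D5:**
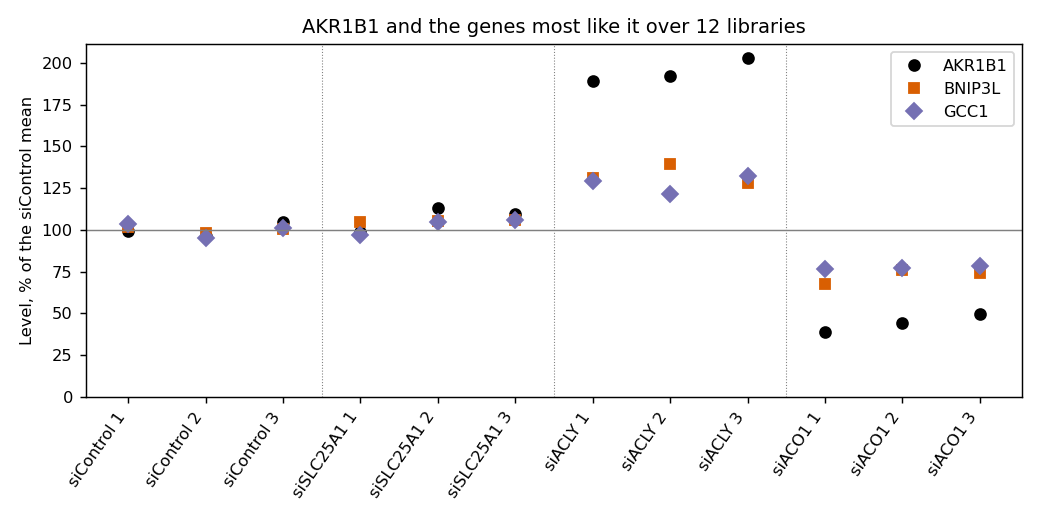
Level of AKR1B1, BNIP3L and GCC1 in each library as a percentage of the siControl mean (y axis from 0); dotted lines separate the groups. AKR1B1 is at 189% to 203% in siACLY and 38.7% to 49.5% in siACO1, and the other 2 genes move to the same sides by less, BNIP3L to 128% to 140% and 67.6% to 75.9%.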

How the data were processed

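RNA-seq read counts of 12 polyA libraries of MiaPaCa-2 cells were used. The authors deposited 1 table of whole-number counts per gene, not normalized, per the file headers and values. The submitters' processing notes name CASAVA, FastQC, Trim Galore, STAR 2.7.0e and DESeq2, and the builds GRCh38 and GRCm39; the counting tool, annotation and use of strand are not given in the sources used here. Symbols matched 62700 of 70116 identifiers (89.4%).

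Genes were filtered with filterByExpr and scaled by TMM, and 16197 were tested in 1 edgeR 4.0.16 quasi-likelihood fit (robust, R 4.3.3) of 4 groups with 8 residual degrees of freedom. Tests are two-sided, Benjamini-Hochberg adjusted over all genes tested and called under 0.05. Each SE was derived as the absolute log2 fold change divided by the square root of the F statistic. The 95% intervals use that SE with a t distribution, so SEs and intervals are approximate. The common biological coefficient of variation was 4.89%, and libraries held 24159424 to 43792811 counts. Levels are TMM-scaled CPM, which would not show a change in total RNA per cell. The script was tested on simulated data.

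Groups come from the titles and genotypes. Same-numbered replicates did not deviate together (correlations -0.0340 to 0.0672 over 18 pairs), so no block was used. Alternatives were size factors, library totals, DESeq2 1.42.0, other filters, the compared groups alone, a replicate block, leaving out each library, and a summed AKR1C row.

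Named genes are the 6 members, the 3 targets, the other tested aldo-keto reductases, the 2 called genes with the largest change per list and knockdown (5 CPM or more in the higher of both groups), and the 2 genes most like each tested member, 1 of which, for AKR1A1, is not reported here. Of these 47 genes, 9 were uncertain: at least 20% of exon bases lay in another gene, or at least 20% of 31-base stretches occurred in other genes' transcripts (GENCODE 29, which may differ from the annotation behind the counts). They are AKR1B10, AKR1C1, AKR1C2, AKR7A3, AKR7L, ALDH1A3, HSD17B7, HSD3B7 and PLA2G12A. Members and lists were chosen with earlier results of these data known. Start regions are from RefSeq.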

Additional observations from a re-analysis of the deposited data

How the results depend on the processing

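No fold change of a member that was called changed direction under any of the 19 alternatives. The AKR1B1 calls in siACLY and siACO1 and the AKR1C1 and AKR1C2 calls in siACLY held under every one; AKR1B1 in siACLY ran from 0.93 to 1.01, and AKR1B1 in siACO1 ran from -1.26 to -1.09. The number of members called in siSLC25A1 was 0, and ran from 0 to 1 when 1 library was left out. In siACLY it was 5, and ran from 3 to 5, with 4 by DESeq2, by library totals or without a filter. In siACO1 it was 2, ran from 1 to 3, and was 1 by library totals. For siSLC25A1 against siACO1 it was 2, ran from 1 to 3, and was 1 by library totals. For siSLC25A1 against siACLY it was 3, and 5 with AKR1C1 to AKR1C3 summed, where the row counts for each of them. The AKR1A1 call there was lost without siSLC25A1 replicate 1 or 2 or siACLY replicate 2. For siACLY against siACO1 the number was 4, and the AKR1C2 call was lost without siACO1 replicate 2. The replicate block gave 4 members in siACLY, losing AKR1C3 (adjusted p 0.0524, edgeR), and changed no other call of a member; 6 of 12 libraries correlated best with their own number. Counts of all genes called stayed within 1.5 times. Depth limits AKR1C3, with 11 to 33 counts, and AKR1C2, with 30 to 89.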
